A study of Mus musculus with 2 samples.

Results

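Loricrin (Lor), filaggrin (Flg) and 8 further genes of the cornified envelope and its crosslinking (Flg2, Hrnr, Ivl, Cnfn, Tgm1, Tgm3, Tchh and Ecm1) were followed through the epithelial cells of imiquimod-treated mouse back skin. The 10 genes were taken by symbol from a count table of 31053 genes, and all 10 were found. Their raw UMIs (unique molecular identifiers, which count captured RNA molecules) were summed for each library and for each epithelial cell class gated by marker genes. The tested library came from Chrna5 knockout mice (KO, Chrna5-/-), which lack the alpha 5 subunit of nicotinic acetylcholine receptors, and the other library came from wild-type mice (WT). Both groups were female, aged 6 to 8 weeks, and both had received 62.5 mg of 5% imiquimod cream on the back on each of 6 days, with the skin taken on day 7. Imiquimod activates Toll-like receptors and is used to give mouse skin a psoriasis-like inflammation, so both libraries are of inflamed skin. A cream-base control group named in the labels was not analysed here. The labels give 5 mice per group without saying whether a library pools them, name both C57BL/6N and C57BL/6J, and do not give the deleted part of Chrna5.

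The cornified envelope is a layer of crosslinked protein that replaces the plasma membrane of keratinocytes as they die to form the stratum corneum. Involucrin and the plakins are laid down first as a scaffold, loricrin and small proline-rich proteins then reinforce it, and transglutaminases join the chains through bonds between glutamine and lysine side chains. Filaggrin and its relatives come from large granules of the upper epidermis and bundle keratin filaments inside the flattening cell. In psoriatic human skin loricrin and filaggrin are known to be low.

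With 1 library per genotype there was no replicate and no test. Each ratio below compares these 2 libraries, and each interval is a 95% interval of counting error only. The KO library held 10886 barcodes and 123839924 UMIs and the WT library 14557 barcodes and 147260653 UMIs, and 49 barcode sequences occurred in both. After filtering, 10233 KO and 13938 WT cells were kept, of which 3165 KO cells (30.9%) and 4267 WT cells (30.6%) with at least 3000 UMIs passed the epithelial gate, with median depths of 18677 and 17113 UMIs. A further 822 KO and 4255 WT barcodes were rich in keratin but shallower than that and were set aside. Chrna5 itself had 6 UMIs in all kept KO cells and 12 in all kept WT cells, and 1 and 8 UMIs in the epithelial cells, so these counts do not check the genotype labels. Markers of fibroblasts, immune cells and other non-epithelial types summed to between 105 and 211 CPM (the usual scaling of UMI counts to a common total) in the 7 gated KO classes and between 119 and 343 CPM in the WT classes, against 11532 CPM in KO and 15451 CPM in WT non-epithelial cells.

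The 7 classes were named by their gate. They were suprabasal cells (Krt1 and Krt10; 364 KO and 552 WT cells), upper follicle cells (Krt79; 594 and 520), basal cells with low cycling markers (Krt5 and Krt14; 955 and 1710), cycling cells (159 and 500), outer follicle cells (429 and 674), inner follicle cells (194 and 85) and sebaceous gland cells (131 and 106). Cst6, an upper follicle marker that no gate used, was highest in the upper follicle gate in both libraries, at 44933 CPM in KO and 23187 CPM in WT. The suprabasal gate held it too, at 14328 CPM in KO and 13906 CPM in WT. That gate was applied before Krt79 was looked at. Its cells held Krt79 at 4269 CPM in KO and 3070 CPM in WT, against 5983 and 4898 CPM in the upper follicle gate. Suprabasal and upper follicle classes thus overlap in their markers. The inner follicle gate rested on Cldn3 and Krt75, and the inner root sheath keratins were close to 0 in it, with Krt25 at 0.563 CPM in KO and 0.519 CPM in WT and Krt71 at 0.375 CPM in KO and 0.519 CPM in WT. Gate thresholds were set after the marker values had been seen, and 339 KO and 120 WT epithelial cells stayed outside all 7.

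Of the 10 genes, 7 lie on mouse chromosome 3, and 6 of these (Lor, Ivl, Flg2, Flg, Hrnr and Tchh) stand within 1369 kb of the epidermal differentiation complex, from 92080271 to 93449077 in the GENCODE annotation of GRCm38. Ecm1 lies further along the same chromosome, Tgm1 is on chromosome 14, Tgm3 on chromosome 2 and Cnfn on chromosome 7. The RefSeq promoter table (GRCm38.p6) held 11 promoters of the 10 genes, and the 250 bases before each start were searched on both strands for TGANTCA, the motif of AP-1 factors (Fos and Jun proteins). The motif was found in 5 of the 11 windows (Lor, Flg, Flg2, Ivl and Ecm1) and in 6.749% of 32851 windows of the same length. TATAAA, the core of the TATA box, was found in 6 of the 11 windows and in 12.37% of all windows, and the GC box GGGCGG in 3 of the 11 and in 32.74%. A match is a description of the sequence and not evidence of binding. The windows of Lor, Flg, Ivl and Cnfn are shown, with TGANTCA in capitals, because the results below turn on these 4 genes. They lie at chr3:92083143-92083392 (minus strand), chr3:93273296-93273545 (plus strand), chr3:92573736-92573985 (minus strand) and chr7:25369725-25369974 (minus strand).
Lor: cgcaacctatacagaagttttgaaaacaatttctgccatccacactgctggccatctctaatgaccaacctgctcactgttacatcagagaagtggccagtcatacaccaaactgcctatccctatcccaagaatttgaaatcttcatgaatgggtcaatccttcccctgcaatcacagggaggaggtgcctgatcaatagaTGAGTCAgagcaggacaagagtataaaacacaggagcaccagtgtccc
Flg: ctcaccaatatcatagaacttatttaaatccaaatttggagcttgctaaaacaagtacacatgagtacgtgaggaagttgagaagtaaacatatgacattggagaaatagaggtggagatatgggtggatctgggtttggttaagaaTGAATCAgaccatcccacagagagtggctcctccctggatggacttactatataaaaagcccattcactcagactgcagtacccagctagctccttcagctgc
Ivl: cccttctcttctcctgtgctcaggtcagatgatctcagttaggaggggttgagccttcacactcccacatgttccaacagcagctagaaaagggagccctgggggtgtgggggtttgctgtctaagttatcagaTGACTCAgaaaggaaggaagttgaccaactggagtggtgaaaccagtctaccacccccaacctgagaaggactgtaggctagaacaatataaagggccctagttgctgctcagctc
Cnfn: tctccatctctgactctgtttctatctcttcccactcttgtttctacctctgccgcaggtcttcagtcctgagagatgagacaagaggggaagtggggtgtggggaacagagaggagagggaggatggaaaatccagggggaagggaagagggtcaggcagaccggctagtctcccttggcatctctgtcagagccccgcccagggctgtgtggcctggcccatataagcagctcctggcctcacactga
The capitals begin 48 bases before the start of Lor, 103 before that of Flg and 116 before that of Ivl, and the Cnfn window holds no TGANTCA.

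Across all epithelial cells together, the KO library held more RNA of loricrin and of the filaggrin group and less of cornifelin, involucrin and Tgm3. A gene was called where the ratio was at least 1.5-fold and its interval left out 1, among genes with at least 20 UMIs in the libraries together. All 10 members passed that filter, and 5 were higher (Lor, Flg, Flg2, Hrnr and Tchh) and 3 lower in KO (Ivl, Cnfn and Tgm3). Flg2 passed only through the KO library, with 68 UMIs in KO and 8 in WT. Of 15516 genes, 23.0% were called in these cells, 13.7% as higher and 9.27% as lower. Lor stood at 52.3 CPM in KO and 6.30 CPM in WT, a ratio of 8.30 (7.64 to 9.03). Cnfn, which encodes the envelope-bound protein cornifelin, stood at 85.7 CPM in KO and 211 CPM in WT, 2.46-fold lower (2.39 to 2.53). Tgm1 and Ecm1 were not called, with ratios of 1.02 (0.969 to 1.08) and 0.914 (0.852 to 0.981).

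The libraries held different shares of the classes, with upper follicle cells at 18.8% of KO and 12.2% of WT epithelial cells and basal cells at 30.2% of KO and 40.1% of WT cells. With each class given the same weight in both libraries, the Lor ratio was 7.62, Flg2 9.17, Hrnr 2.87, Tchh 2.80 and Flg 1.60. On the same scale Cnfn was 3.33-fold lower, Ivl 1.73-fold lower and Tgm3 1.60-fold lower in KO. The Cnfn value leaned in part on single WT cells. Outside the gates 1 cell held 652 of 811 WT Cnfn UMIs, and in inner follicle cells 1 cell held 615 of 666. All 8 called members thus kept their direction and a size of at least 1.5-fold with class make-up held equal. Some of these calls were lost when each cell was thinned to 3000 UMIs, where the Tgm3 ratio was 0.971 (0.499 to 1.85), the Ivl ratio 0.708 (0.607 to 0.824), and Flg2 had too few UMIs for the filter. The Tgm3 ratio was 0.695 (0.525 to 0.914) without the 1% of cells with most Tgm3.

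**Figure D1:**
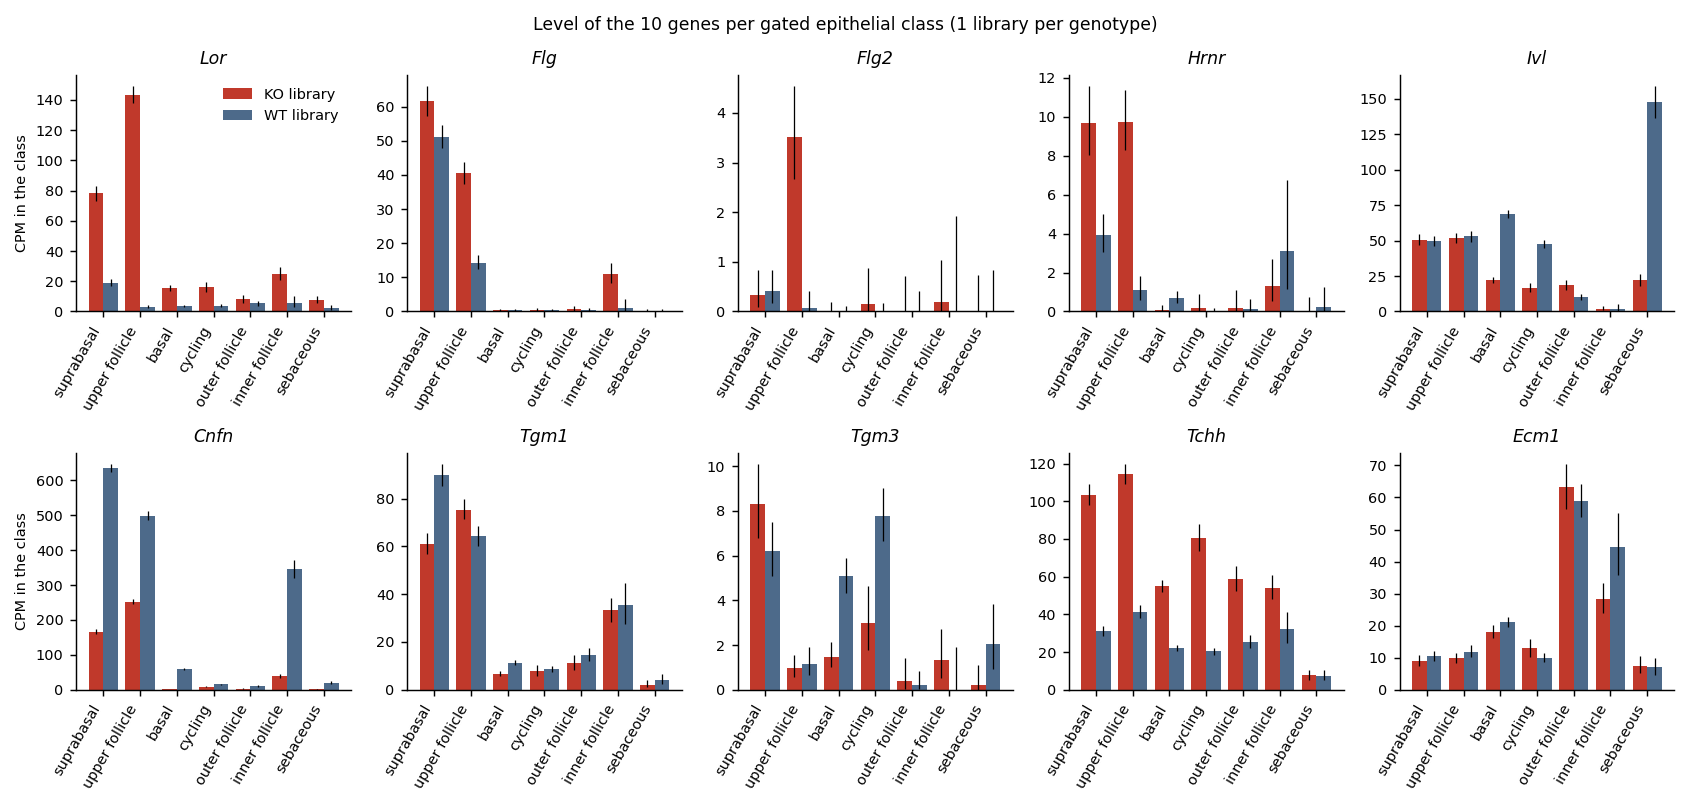
Level of each gene in CPM (vertical axis, from 0) in the 7 gated epithelial classes, with the KO bar left of the WT bar and lines for the 95% interval of counting error. Lor stands out in the KO upper follicle bar at 143 CPM, Cnfn is higher in WT in all 7 classes, and the tallest Ivl bar is that of WT sebaceous gland cells at 147 CPM.

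Loricrin, the main reinforcing protein of the epidermal envelope, was higher in KO in 6 of the 7 classes. In upper follicle cells it stood at 143 CPM in KO and 3.06 CPM in WT, from 2365 and 42 UMIs, a ratio of 46.8 (34.5 to 65.2). In suprabasal cells it stood at 78.1 CPM in KO and 19.1 CPM in WT, a ratio of 4.09 (3.61 to 4.65). The class with the highest level was thus upper follicle in KO and suprabasal in WT. Basal, cycling and inner follicle cells had 15.4, 16.2 and 25.0 CPM in KO, against 3.62, 3.94 and 5.71 CPM in WT, with ratios between 4.11 and 4.37. With stricter gates the ratio was 8.40 (7.02 to 10.1) in basal and 2.63 (1.65 to 4.13) in cycling cells. The highest KO cell held 62 of 312 basal, 37 of 103 cycling and 42 of 133 inner follicle UMIs, and 2 cells held 50% of the cycling ones. In thinned cells the cycling and inner follicle calls were lost. Cycling cells then had too few UMIs for the filter, and the inner follicle ratio was 5.70 (0.856 to 242). Sebaceous gland cells had 7.57 CPM in KO and 2.48 CPM in WT, but 1 KO cell held 23 of the 38 KO UMIs, and the ratio was 1.35 (0.508 to 3.82) without the 1% of cells with most Lor. Outer follicle cells had 8.21 CPM in KO and 5.33 CPM in WT, where the ratio of 1.54 (0.992 to 2.39) was not called. In the KO library the intervals of basal and cycling cells overlapped, as did those of outer follicle and sebaceous gland cells. In the WT library only suprabasal cells stood clear of all the other classes.

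Lor UMIs came from few cells. In KO upper follicle cells 113 of 594 cells had a Lor UMI, 7 cells held 50% of the UMIs, and the highest cell had 290. In WT upper follicle cells 27 of 520 had one, and the highest had 6. Among suprabasal cells, 5 KO cells and 3 WT cells held 50% of their library's UMIs, with maxima of 175 and 83. Without the 1% of cells with most Lor UMIs in each library, the suprabasal ratio was 6.81 (5.50 to 8.50) and the ratio over all epithelial cells 6.00 (5.25 to 6.87). With every cell thinned to 3000 UMIs, a Lor UMI was seen in 7.24% (5.29 to 9.63) of KO and 1.15% (0.425 to 2.49) of WT upper follicle cells. For suprabasal cells the shares were 7.69% (5.17 to 10.9) in KO and 1.99% (0.999 to 3.54) in WT. Before thinning, the shares were 19.0% in KO and 5.19% in WT upper follicle cells and 25.0% and 9.24% in suprabasal cells. Non-epithelial cells, which should lack the gene, had a Lor UMI in 0.670% of KO and 0.193% of WT cells after thinning, and in 1.45% and 0.706% before it, at median depths of 6683.5 and 7823 UMIs. Both suprabasal and upper follicle shares lay above that background in each library. The non-epithelial level was itself higher in KO, at 2.58 CPM in KO and 0.858 CPM in WT, a ratio of 3.01 (1.86 to 5.05). It lay below the level of each of the 7 classes in its library.

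Involucrin, the early scaffold protein, did not follow loricrin. In suprabasal cells it stood at 50.4 CPM in KO and 49.6 CPM in WT, a ratio of 1.02 (0.915 to 1.13). In upper follicle cells it stood at 51.7 CPM in KO and 52.9 CPM in WT, a ratio of 0.977 (0.884 to 1.08). Both intervals leave out a difference of 1.5-fold for the class as a whole, and the classes called lower in KO were others. Within these classes the ratio differed with the level of late differentiation markers, as given below. In basal cells Ivl stood at 22.1 CPM in KO and 68.6 CPM in WT, 3.1-fold lower (2.80 to 3.44), and in cycling cells at 16.8 CPM in KO and 47.7 CPM in WT, 2.84-fold lower (2.33 to 3.50). Sebaceous gland cells had 22.1 CPM in KO and 147 CPM in WT, 6.66-fold lower (5.44 to 8.23). The highest class for Ivl was therefore sebaceous gland in WT, with basal cells next, whereas in KO the suprabasal and upper follicle classes were highest and their intervals overlapped. Outer follicle cells had 18.4 CPM in KO and 10.2 CPM in WT, but 1 KO cell held 48 of the 94 KO UMIs, and without the 1% of cells with most Ivl the ratio was 0.579 (0.283 to 1.11). Stricter gates gave 1.09 (0.684 to 1.71) there. Inner follicle cells had 11 Ivl UMIs in KO and 4 in WT, under the filter. The epithelial cells outside the 7 gates held 62.1 CPM in KO and 32.4 CPM in WT. Non-epithelial cells had 0.701 CPM in KO and 1.23 CPM in WT, below each of the 7 classes in their library.

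Cornifelin, first described as a protein raised in human psoriatic epidermis, was lower in KO in all 7 classes, although the direction did not hold under every setting in cycling and outer follicle cells. Suprabasal cells held 166 CPM in KO and 634 CPM in WT, 3.81-fold lower (3.64 to 4.0). Upper follicle cells held 252 CPM in KO and 499 CPM in WT, 1.98-fold lower (1.91 to 2.06), and the ratio of 0.686 (0.606 to 0.776) in thinned cells was not called. Suprabasal and upper follicle cells together were the main source in both libraries, as 31.4% and 63.4% of the KO epithelial Cnfn UMIs and 50.2% and 31.4% of the WT ones. After thinning, 16.2% (12.6 to 20.4) of KO and 31.7% (27.8 to 35.8) of WT suprabasal cells had a Cnfn UMI, against 40.7% and 50.5% before it. Non-epithelial cells had one in 0.858% of KO and 3.53% of WT cells after thinning and in 1.69% and 8.29% before it. The values in basal, inner follicle and sebaceous gland cells rested on very few WT cells. In basal cells, at 2.28 CPM in KO and 59.8 CPM in WT, 2 WT cells held 50% of the UMIs. The ratio of 0.0381 was 0.152 (0.0897 to 0.243) without the 1% of cells with most Cnfn, and the KO level was no higher than the 2.47 CPM of KO non-epithelial cells. In inner follicle cells 1 cell held 145 of 204 KO UMIs and 1 cell held 615 of 666 WT UMIs, and the ratio of 0.111 was 0.298 (0.193 to 0.459) without the 1% of cells with most Cnfn. Sebaceous gland cells had 1.59 CPM in KO and 20 CPM in WT, where 1 cell held 78 of 89 WT UMIs, and the ratio was 0.584 (0.171 to 1.84) without the 1% of cells with most Cnfn. Cycling cells had 9.27 CPM in KO and 15.2 CPM in WT, and outer follicle cells 2.74 CPM in KO and 9.97 CPM in WT. The outer follicle levels were close to those of non-epithelial cells, at 2.47 CPM in KO and 11.1 CPM in WT, and with free RNA subtracted no WT UMI was left. In both of these the direction turned under another setting, to 1.66 (1.12 to 2.41) in cycling cells with free RNA subtracted and to 2.10 (1.58 to 2.79) in outer follicle cells with stricter gates.

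**Figure D2:**
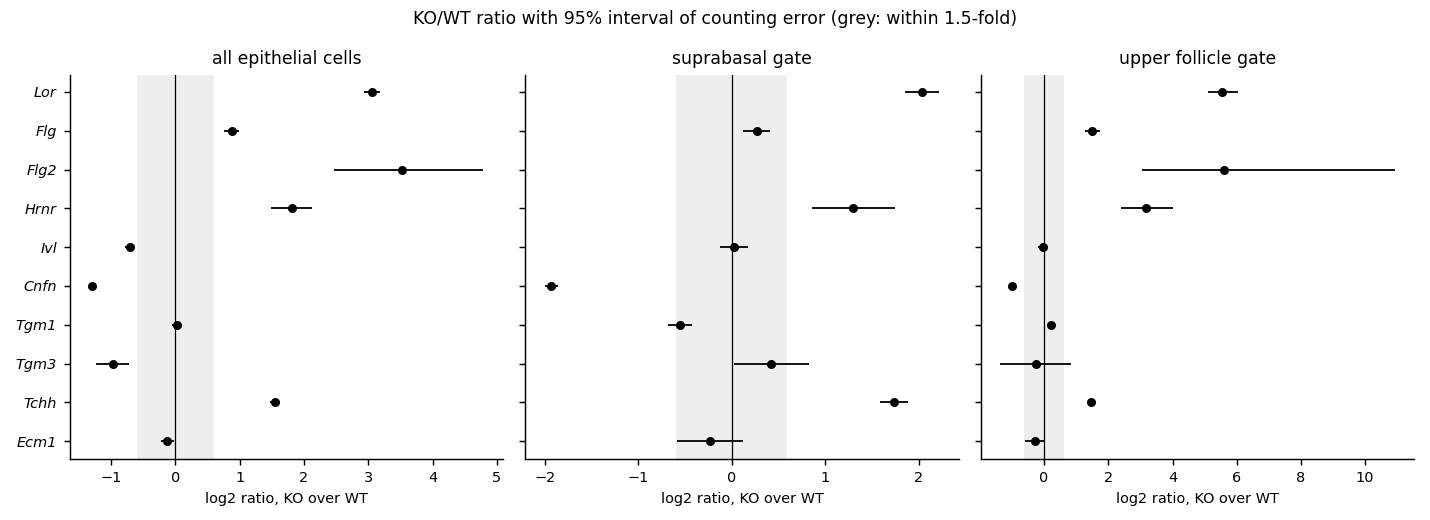
Ratio of KO over WT on a log2 axis for each gene in all epithelial cells, the suprabasal gate and the upper follicle gate, with points for the ratio, lines for the 95% interval of counting error, and a grey band for less than 1.5-fold. Lor and Hrnr lie right of the grey band and Cnfn left of it in all 3 panels, and Ivl lies left of it only in all epithelial cells.

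Filaggrin is cut from a large granule protein to bundle keratin and is later broken down to the amino acids that hold water in the stratum corneum. In suprabasal cells Flg stood at 61.6 CPM in KO and 51.2 CPM in WT, a ratio of 1.20 (1.09 to 1.33), which was not called. In upper follicle cells it stood at 40.5 CPM in KO and 14.3 CPM in WT, a ratio of 2.83 (2.41 to 3.34). The epithelial Flg of the KO library was thus spread over both classes, with 50.7% of its UMIs suprabasal and 44.5% upper follicle, whereas 79.8% of the WT UMIs were suprabasal and 17.7% upper follicle. In each library 4 upper follicle cells held 50% of the Flg UMIs. Among suprabasal cells 4 KO and 7 WT cells did so, and 1 KO cell held 259 of the 762 KO UMIs. After thinning, a Flg UMI was seen in 3.70% (2.34 to 5.55) of KO and 2.50% (1.34 to 4.24) of WT upper follicle cells, shares whose intervals overlap, and before thinning in 10.1% of KO and 6.15% of WT cells. Non-epithelial cells had one in 0.0268% of KO and 0.0963% of WT cells after thinning and in 0.107% and 0.257% before it. Basal, cycling and outer follicle cells held under 1 CPM in both libraries, and sebaceous gland cells had 0 UMIs in both. The inner follicle value of 10.9 CPM in KO and 1.04 CPM in WT came from 58 and 2 UMIs, of which 52 lay in 1 KO cell. Without the 1% of cells with most Flg that ratio was 0.375 (0.00478 to 29.4).

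Flg2 and Hrnr encode the S100-fused relatives filaggrin-2 and hornerin, which lie beside Flg. Flg2 was sparse, with 68 UMIs in KO and 8 in WT epithelial cells. Of these, 58 in KO and 1 in WT were in upper follicle cells, a ratio of 48.2 (8.32 to 1938), and 3 KO cells held 50% of the 58. Without the 1% of cells with most Flg2 no UMI was left in WT, and the interval of the ratio reached down to 0.977. Suprabasal cells had 4 KO and 7 WT Flg2 UMIs, under the filter. Hrnr stood at 9.76 CPM in KO and 1.09 CPM in WT upper follicle cells, a ratio of 8.93 (5.25 to 16.3), and at 3.95 (2.77 to 5.76) with stricter gates. In suprabasal cells it stood at 9.70 CPM in KO and 3.94 CPM in WT, a ratio of 2.46 (1.81 to 3.36). There 1 KO cell held 63 of 120 UMIs, and thinned cells gave 0.948 (0.244 to 3.29) where stricter gates gave 4.02 (2.71 to 6.09). In basal cells Hrnr had 2 UMIs in KO and 24 in WT, and all 24 lay in 2 cells. The other 4 classes did not reach the filter for Hrnr.

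Trichohyalin (Tchh) is best known as a hardening protein of the inner root sheath and medulla of hair, where it is crosslinked by transglutaminases. It was higher in KO in 6 of the 7 classes, and its KO levels in those 6 lay between 54.2 and 114 CPM. Upper follicle cells held 114 CPM in KO and 41.3 CPM in WT, a ratio of 2.77 (2.52 to 3.05). Suprabasal cells held 104 CPM in KO and 31.2 CPM in WT, a ratio of 3.32 (3.00 to 3.68), and cycling cells 80.4 CPM in KO and 20.3 CPM in WT, a ratio of 3.96 (3.48 to 4.51). Basal cells held 54.8 CPM in KO and 22.2 CPM in WT, outer follicle cells 58.6 CPM in KO and 25.5 CPM in WT, and inner follicle cells 54.2 CPM in KO and 32.2 CPM in WT, with ratios of 2.47, 2.30 and 1.68. Sebaceous gland cells held 7.57 CPM in KO and 7.43 CPM in WT, a ratio of 1.02 (0.623 to 1.68). The inner follicle gate was not the highest class in either library. Its ratio was 1.30 (0.924 to 1.87) with free RNA subtracted, and the direction turned, at 0.466 (0.221 to 0.985), in thinned cells.

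Tchh UMIs were shared by many cells, with 64 of the KO upper follicle cells and 29 of the WT ones holding 50% of the class total. Thinned cells had a Tchh UMI in 22.6% (19.3 to 26.1) of KO and 8.65% (6.38 to 11.4) of WT upper follicle cells and in 20.3% (16.3 to 24.8) of KO and 9.24% (6.96 to 12) of WT suprabasal cells. Before thinning these shares were 65.8% and 41.2%, and 64.0% and 38.2%. Non-epithelial cells also held Tchh, at 25.1 CPM in KO and 9.81 CPM in WT, a ratio of 2.56 (2.22 to 2.96). Their share with a UMI was 5.74% (5.01 to 6.53) in KO and 2.73% (2.19 to 3.36) in WT after thinning, and 11.2% and 6.01% before it. Both epithelial shares lay above the non-epithelial one in each library. With the non-epithelial level of each library subtracted, the ratio over all epithelial cells was 3.13 (2.95 to 3.32). A gene model, Gm37245, overlaps Tchh and Hrnr, and whether the counting used strand is not stated.

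Tgm1 encodes the membrane-anchored transglutaminase of keratinocytes, which is mutated in human lamellar ichthyosis. Suprabasal cells held 61.2 CPM in KO and 89.8 CPM in WT, a ratio of 0.681 (0.624 to 0.744) that did not reach 1.5-fold, although it was 0.621 (0.561 to 0.687) with stricter gates. Upper follicle cells held 75.4 CPM in KO and 64.3 CPM in WT, a ratio of 1.17 (1.07 to 1.28). Inner follicle cells had 33.2 CPM in KO and 35.3 CPM in WT, outer follicle cells 11.1 CPM in KO and 14.6 CPM in WT, and cycling cells 7.70 CPM in KO and 8.56 CPM in WT. None of these 5 classes was called, and neither were sebaceous gland cells, at 2.19 CPM in KO and 4.05 CPM in WT. The basal value of 6.78 CPM in KO and 11.3 CPM in WT was 1.67-fold lower (1.37 to 2.04). That KO level was close to the 6.13 CPM of KO non-epithelial cells, where WT non-epithelial cells had 7.46 CPM, and the call was lost at 0.912 (0.557 to 1.46) in thinned cells, 0.727 (0.599 to 0.879) with stricter gates and 0.693 (0.550 to 0.867) without the 1% of cells with most Tgm1. With free RNA subtracted the basal ratio was 0.168 (0.0871 to 0.298). Tgm1 UMIs were spread over many cells, with 71 KO and 38 WT cells holding 50% of the upper follicle UMIs.

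Tgm3, a soluble transglutaminase activated by cleavage and active in epidermis and hair, was low throughout. Suprabasal cells held 8.32 CPM in KO and 6.21 CPM in WT, a ratio of 1.34 (1.01 to 1.77) that was not called, and upper follicle cells 0.970 CPM in KO and 1.17 CPM in WT. Basal cells held 1.48 CPM in KO and 5.07 CPM in WT, 3.42-fold lower (2.31 to 5.22), and cycling cells 2.99 CPM in KO and 7.78 CPM in WT, 2.61-fold lower (1.62 to 4.44). In WT, cycling and suprabasal cells thus had overlapping intervals at the top of the order. The cycling value rested on 4 WT cells with 50% of the UMIs and turned to 1.76 (0.958 to 3.11) with stricter gates. In basal cells 8 WT cells held 50% of the UMIs, and the ratio was 0.491 (0.249 to 0.907) without the 1% of cells with most Tgm3. The outer follicle, inner follicle and sebaceous gland classes were under the filter, and non-epithelial cells had 0 Tgm3 UMIs in KO and 11 in WT.

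Ecm1, a secreted glycoprotein of the extracellular matrix that is mutated in human lipoid proteinosis, was mainly a gene of other cells here. Non-epithelial cells held 191 CPM in KO and 143 CPM in WT, a ratio of 1.34 (1.29 to 1.40). Among epithelial classes it was highest in outer follicle cells, at 63.1 CPM in KO and 58.8 CPM in WT, a ratio of 1.07 (0.931 to 1.24). Inner follicle cells held 28.3 CPM in KO and 44.6 CPM in WT, 1.58-fold lower (1.19 to 2.07), a call that was lost with stricter gates (0.677), in thinned cells (0.789, 0.345 to 1.91) and without the 1% of cells with most Ecm1 (0.712, 0.532 to 0.961). With free RNA subtracted no Ecm1 UMI was left in the inner follicle cells of either library. That outcome was fixed in advance, because the non-epithelial level that was subtracted is higher, so it does not show the source of this RNA. Basal cells held 18.1 CPM in KO and 21.1 CPM in WT, cycling cells 12.9 CPM in KO and 10.1 CPM in WT, and upper follicle cells 9.76 CPM in KO and 11.9 CPM in WT. Suprabasal cells, at 8.89 CPM in KO and 10.4 CPM in WT, and sebaceous gland cells, at 7.57 CPM in KO and 6.98 CPM in WT, were at the low end, and the interval of WT sebaceous gland cells (4.74 to 9.91) lay below that of WT upper follicle cells (10.1 to 13.9). None of these 5 classes was called. All epithelial values of Ecm1 lay below the non-epithelial level of their library.

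Counts of called members were set beside the share of all genes called in the same class. Among upper follicle cells, 5 of 10 were higher (Lor, Flg, Flg2, Hrnr and Tchh) and 1 lower (Cnfn), where 22.1% of 11900 genes were called, 10.8% as higher and 11.4% as lower. In suprabasal cells 3 of the 9 that passed the filter were higher (Lor, Hrnr and Tchh) and 1 lower (Cnfn), against 21.6% of 11749 genes, 12.9% higher and 8.69% lower. In basal cells 2 of 9 were higher (Lor and Tchh) and 5 lower (Ivl, Cnfn, Tgm1, Tgm3 and Hrnr), against 22.7% of 13350 genes, 9.97% higher and 12.8% lower. Cycling cells had 2 of 7 higher (Lor and Tchh) and 3 lower (Ivl, Cnfn and Tgm3) against 21.6% of 12137 genes, 14.1% higher and 7.55% lower. Inner follicle cells had 3 of 6 higher (Lor, Flg and Tchh) and 2 lower (Cnfn and Ecm1) against 25.5% of 9453 genes, 16.4% higher and 9.11% lower. Outer follicle cells had 2 of 6 higher (Ivl and Tchh) and 1 lower (Cnfn) against 23.2% of 11017 genes, 14.0% higher and 9.25% lower. Sebaceous gland cells had 1 of 6 higher (Lor) and 2 lower (Ivl and Cnfn) against 20.2% of 9679 genes, 9.78% higher and 10.4% lower. Some called members had fewer than 20 UMIs in 1 library and passed the filter only through the other, so these calls follow in part from the filter. They were Flg2 and Hrnr in upper follicle, Hrnr in basal, Tgm3 in cycling, and Lor and Flg in inner follicle cells. Cnfn in outer follicle cells and Lor and Cnfn in sebaceous gland cells were the others. The upper follicle Flg2 call was also lost in thinned cells and without the 1% of cells with most Flg2. The median log2 ratio of the members that passed was 0.85 in upper follicle, 0.27 in suprabasal and -0.74 in basal cells, where the median of all genes tested was -0.01, 0.09 and 0.00.

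**Figure D3:**
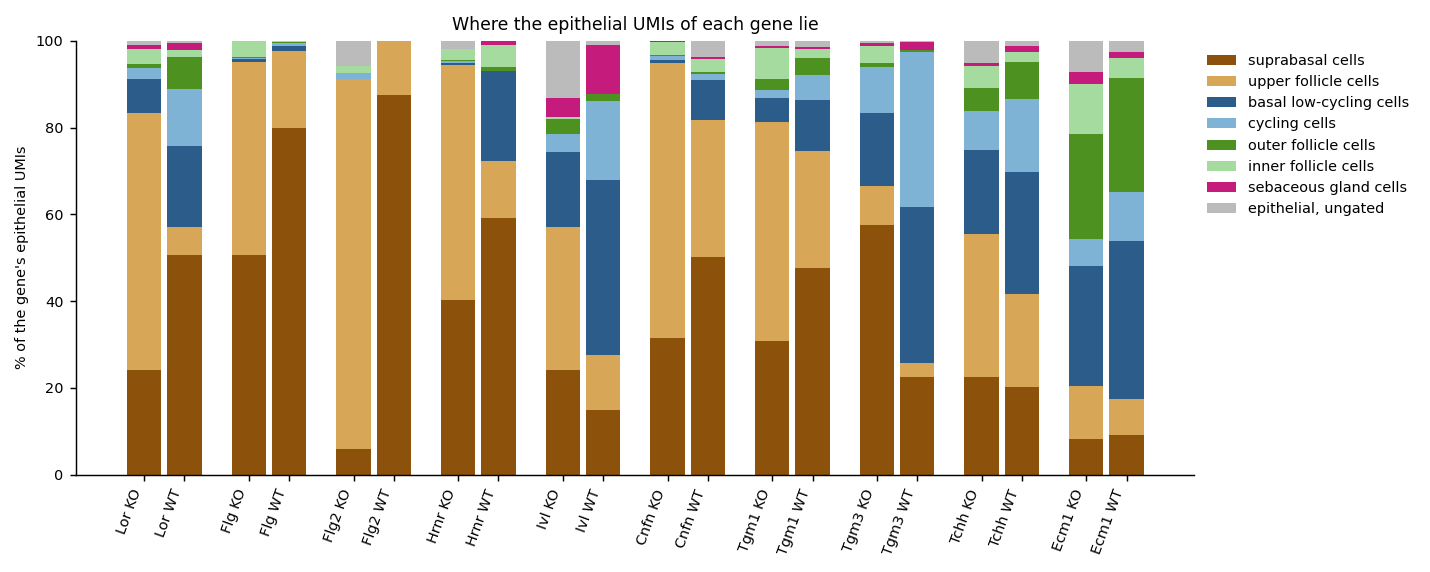
Share of each gene's epithelial UMIs (vertical axis, percent) that lay in each gated class, with the KO bar left of the WT bar for each gene. Upper follicle cells held 59.2% of the KO and 6.45% of the WT Lor UMIs, and basal cells held 17.3% of the KO and 40.3% of the WT Ivl UMIs.

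To compare cells with a like level of late markers, suprabasal and upper follicle cells were pooled and binned. The bins used the sum of 10 late differentiation markers (Cdsn, Asprv1, Casp14, Abca12, Elovl4, Alox12b, Aloxe3, Klk7, Degs2 and Kprp) per 10000 UMIs. The bins are ranges and not cell types, their limits were set after the data had been seen, and some markers themselves differed between the libraries. In suprabasal cells Asprv1 (ratio of 0.264), Alox12b (0.502) and Cdsn (0.572) were called lower and Casp14 (1.61) higher in KO. The other markers there were not called or were under the filter. A like sum therefore need not mean like maturity. The bin of 30 or more held 207 KO cells (34 suprabasal and 173 upper follicle) and 231 WT cells (113 and 118), with 56 KO and 52 WT cells within 10% of its limit. In those late cells Lor stood at 369 CPM in KO and 33.5 CPM in WT, a ratio of 11 (9.60 to 12.7). The median of the late markers was alike, at 47.3 in KO and 49.4 in WT late cells, which in part follows from the shared limit of the bin. Without the 1% of cells with most Lor the ratio was 18.9 (15.2 to 23.8). Within the late suprabasal cells it was 7.35 (6.2 to 8.74), at 419 CPM in KO and 57.0 CPM in WT, and within the late upper follicle cells 50.2 (33.3 to 79.4), at 358 CPM in KO and 7.13 CPM in WT.

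The filaggrin relatives were also higher in KO late cells. Hrnr stood at 43.7 CPM in KO and 11.4 CPM in WT, a ratio of 3.83 (2.95 to 5.02), and Flg2 at 11.3 CPM in KO and 0.731 CPM in WT, from 60 and 5 UMIs, a ratio of 15.5 (6.30 to 49.6). Flg stood at 204 CPM in KO and 132 CPM in WT, a ratio of 1.55 (1.41 to 1.69), which was 1.18 (1.05 to 1.32) without the 1% of cells with most Flg. The late bin mixes the classes in different shares. Within late suprabasal and late upper follicle cells the Flg ratio was 2.35 (2.08 to 2.65) and 2.69 (2.27 to 3.20). The Hrnr ratio was 5.41 (3.88 to 7.59) and 7.00 (4.10 to 12.8). The late suprabasal values leaned on single cells among the 34 in KO. There 1 KO cell held 259 of 451 Flg UMIs and 1 KO cell held 63 of 90 Hrnr UMIs. Ivl was close in the pooled bin, at 96.1 CPM in KO and 91.8 CPM in WT, a ratio of 1.05 (0.929 to 1.18), and was 1.53 (1.27 to 1.84) within late suprabasal cells. Tgm1 stood at 149.6 CPM in KO and 189.9 CPM in WT, a ratio of 0.788 (0.720 to 0.861), and of 0.674 (0.559 to 0.809) within late suprabasal cells. Cnfn stood at 773 CPM in KO and 2107 CPM in WT, 2.72-fold lower (2.63 to 2.82). Tchh stood at 72.8 CPM in KO and 33.9 CPM in WT, its lowest KO level among the bins. Lor stood at 43.0 CPM in KO and 2.18 CPM in WT in the lowest bin, at 73.2 CPM in KO and 3.20 CPM in WT in the second and at 47.1 CPM in KO and 15.9 CPM in WT in the third. Its pooled ratio was thus uneven along the late markers, at 19.7, 22.9, 2.96 and 11 from the lowest bin to the highest. By class the third bin was low only in suprabasal cells, at 11.4, 13.3, 2.11 and 7.35 in the same order. Upper follicle cells had 25.1, 48.5, 46.2 and 50.2, from 8, 9, 2 and 23 WT UMIs. In the lowest bin Flg stood at 1.64 CPM in KO and 1.31 CPM in WT. Ivl was lower in KO in that bin, at 10.8 CPM in KO and 26.1 CPM in WT, a ratio of 0.415 (0.293 to 0.576). Within its upper follicle cells the Ivl ratio was 0.343 (0.227 to 0.504) and within its suprabasal cells 0.589 (0.290 to 1.12).

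**Figure D4:**
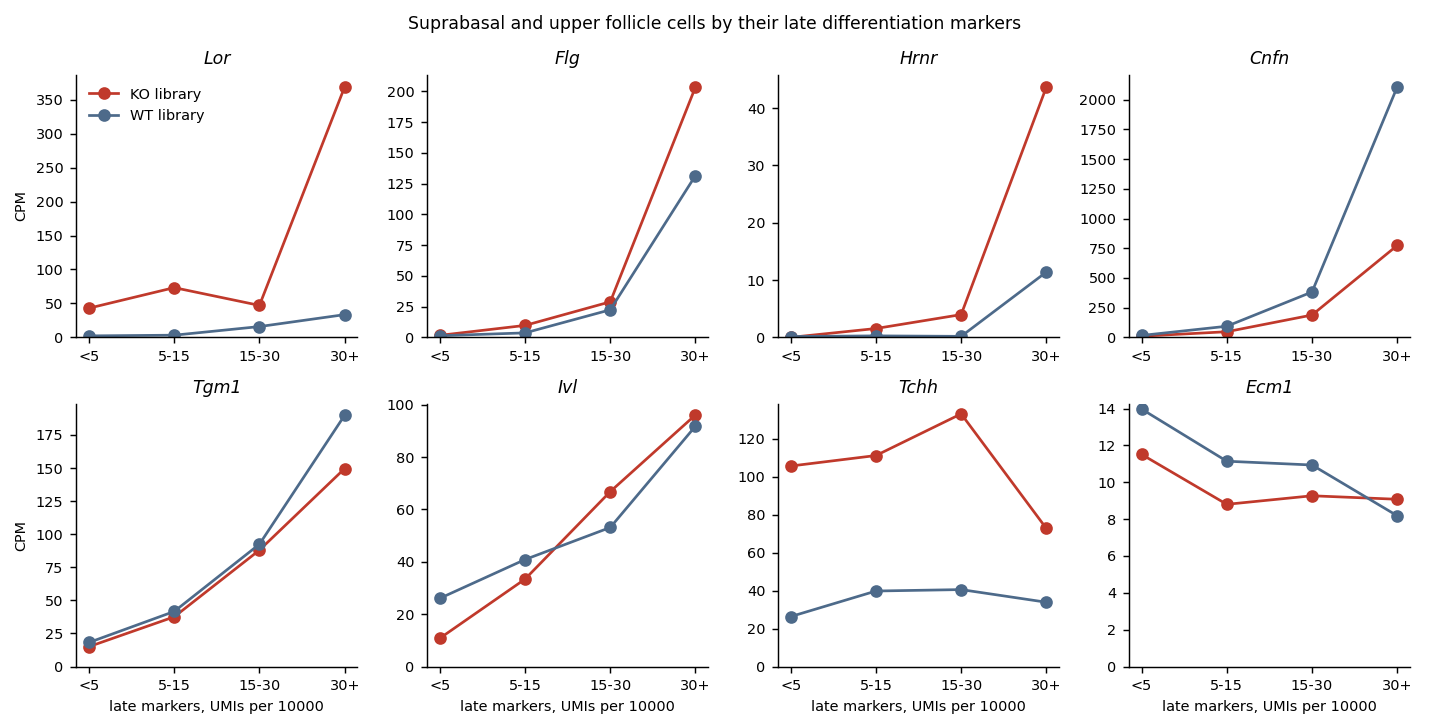
Level in CPM (vertical axes, from 0) of 8 members in suprabasal and upper follicle cells binned by late markers (horizontal axis, late marker UMIs per 10000), for KO and WT. In the bin of 30 or more, Lor reaches 369 CPM in KO and 33.5 CPM in WT, Cnfn 773 CPM in KO and 2107 CPM in WT, and Ivl 96.1 CPM in KO and 91.8 CPM in WT.

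Lor and Cnfn, which differed in opposite directions, were held by overlapping cells. Of the 207 late KO cells, 51 (24.6%) had a Lor UMI and 45 of these also had a Cnfn UMI. Of the 231 late WT cells, 24 (10.4%) had a Lor UMI and 22 of these also had a Cnfn UMI. Cnfn without Lor was seen in 56 KO and 143 WT late cells, and neither in 100 KO and 64 WT cells. The Lor-positive late cells were thus mostly Cnfn-positive in both libraries. These cells were counted without thinning, at median depths of 21987 UMIs in KO and 28352 in WT late cells, and the shares move with depth.

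Patterns were compared over 14 points, the 7 classes in each library, by Pearson's r of log2(CPM + 10) among 11544 genes. The points share their libraries and depth, so each r is a description. Among the members, r was 0.90 between Tgm1 and Cnfn, 0.88 between Tgm1 and Flg, 0.87 between Flg and Hrnr and 0.86 between Lor and Hrnr. It was 0.32 between Lor and Cnfn and 0.02 between Lor and Ivl, and it was lowest between Ivl and Ecm1, at -0.67. The 5 genes most like Lor were Lce1a2 (r of 0.93), Lce1a1, Skint10, Lce1b and Lce1d. Lce1a1, a late cornified envelope gene, stood at 26.0 CPM in KO and 0.146 CPM in WT upper follicle cells, and Skint10, a member of a butyrophilin-like family of skin, at 21.9 CPM in KO and 0.292 CPM in WT. Most like Tgm1 were Gdpd3 (0.96), Kctd11, Defb6, Pglyrp3 and Tmem50b, and most like Tchh were Slc30a1 (0.96), Ripk4, Nav2, Bcor and Skil.

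Other genes of envelope formation were counted from 4 lists chosen with earlier results of these data known. Of 35 listed precursor genes in the table, 29 passed the filter in suprabasal cells, with 10 higher and 13 lower in KO and a median log2 ratio of -0.27, where 12.9% of all genes were called higher and 8.69% lower and their median was 0.09. Of the Lce1 genes, which encode late cornified envelope proteins, 8 of the 9 that passed were higher, with Lce1a1 at 10.5 CPM in KO and 0.464 CPM in WT, and Lce1i and Lce1m each at 2.18 CPM in KO and 0.0580 CPM in WT, a ratio of 37.6 (6.2 to 1539.9) that rested on 1 WT UMI each. Lce1f was the exception, at 3.47 CPM in KO and 14.0 CPM in WT. The 8 higher ones had at most 8 WT UMIs each and passed the filter mainly through their KO UMIs. Their count, which is part of the 10 precursors called higher, thus follows in part from the filter. All 4 Lce3 genes and the 5 small proline-rich genes that passed were lower, with Lce3e at 0.242 CPM in KO and 42.6 CPM in WT, Lce3c at 7.35 CPM in KO and 183 CPM in WT, and Sprr2d at 70.1 CPM in KO and 1244 CPM in WT. Krtdap, the most abundant precursor, stood at 10601 CPM in KO and 12788 CPM in WT and was not called, and neither were the plakins Evpl and Ppl. Lce and Sprr2 genes are near copies, and their reads may be split between them. Upper follicle cells had 14 of 31 higher and 9 lower and a median of -0.05, where 10.8% of all genes were called higher and 11.4% lower and their median was -0.01. Some precursors went against the suprabasal pattern there. Lce1f was higher, at 10.4 CPM in KO and 3.35 CPM in WT, and so was Sprr1a, at 3585 CPM in KO and 2335 CPM in WT. Sprr4, under the filter in suprabasal cells, was called higher from 20 UMIs in KO and 3 in WT. Most Lce1 genes again passed through their KO UMIs, with 0 WT UMIs for Lce1c, Lce1d and Lce1e.

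Of the enzymes that crosslink the envelope or process filaggrin, 20 of 26 passed in suprabasal cells, with 4 higher, 8 lower and a median of -0.26, where 12.9% of all genes were called higher and 8.69% lower and their median was 0.09. The higher ones were Casp14 and Hal, which act on filaggrin and its breakdown products, the kallikrein protease Klk5 and the sulfatase Sulf2, the last at 20.3 CPM in KO and 8.35 CPM in WT. Asprv1, the aspartic protease that cuts profilaggrin, stood at 68.8 CPM in KO and 260.0 CPM in WT, and Klk14 at 0.162 CPM in KO and 2.96 CPM in WT. Cst6, the protease inhibitor with the highest level, stood at 14328 CPM in KO and 13906 CPM in WT. Casp14 and Asprv1, which both act on filaggrin or its precursor, thus differed in opposite directions in this class. Upper follicle cells had 4 of 20 higher and 3 lower with a median of -0.14, against 10.8% higher and 11.4% lower of all genes in that class.

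Of 22 enzymes of envelope lipids and barrier lipids, all passed in suprabasal cells, of which 0 were higher and 6 lower with a median of -0.35, where 12.9% of all genes were called higher and 8.69% lower and their median was 0.09. Lipn, a lipase of late keratinocytes, stood at 1.78 CPM in KO and 5.16 CPM in WT, and Lipk at 2.26 CPM in KO and 5.45 CPM in WT. Elovl4, which makes very long fatty acids for the bound ceramides, had the highest level, at 327 CPM in KO and 345 CPM in WT, and was not called. The largest ratio upward, 1.47 for the ceramidase Acer1, was not called either. Upper follicle cells had 2 of 22 higher and 6 lower with a median of -0.18, against 10.8% higher and 11.4% lower of all genes.

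Of 30 transcription regulators of terminal differentiation, all passed in suprabasal cells, with 13 higher, 4 lower and a median of 0.45, where 12.9% of all genes were called higher and 8.69% lower and their median was 0.09. Fos, a subunit of AP-1, stood at 2426.5 CPM in KO and 861 CPM in WT, a ratio of 2.82 (2.76 to 2.87). Maf stood at 77.6 CPM in KO and 26.3 CPM in WT, and Dlx3 at 4.20 CPM in KO and 1.45 CPM in WT. Among the lower ones were Hopx, at 255 CPM in KO and 556 CPM in WT, Prdm1, at 87.9 CPM in KO and 192 CPM in WT, and Grhl3. Upper follicle cells had 14 of 30 higher and 1 lower, Hopx, with a median of 0.49, against 10.8% higher and 11.4% lower of all genes.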

How the data were processed

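Single cells of dissociated, dye-sorted mouse skin were measured in 2 libraries. The deposited matrices hold raw UMI counts per gene and barcode, which the authors made with Cell Ranger 3.0.2, per the submitters' processing notes, which also name Seurat 3.0 and mm10. The matrix headers name software version 3.1.0, the annotation release and use of strand are not stated, and which barcodes had been removed before deposit is unknown. Barcodes under 200 detected genes or above 10% mitochondrial UMIs were left out. Epithelial cells had at least 3000 UMIs, at least 40 UMIs of 14 epithelial markers per 10000, and at least 2 times as many of these as of 23 non-epithelial markers. They were then gated in order as sebaceous gland (8 genes, at least 15 per 10000), inner follicle (9 genes, 4), cycling (8 genes, 5, with at least 3 of them detected), suprabasal (Krt1 and Krt10, 10), upper follicle (Krt79, 10), outer follicle (6 genes, 12) and basal (Krt5 and Krt14, 20). Thresholds were set from the marker values after these had been seen, and no member is a marker. Non-epithelial cells had at least 20 UMIs of their markers per 10000 and fewer than 20 epithelial ones.

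The UMIs of a class were added up within each library and scaled to CPM. The 95% interval of a ratio is an exact binomial one given the UMIs of both libraries together, which treats UMIs as independent and covers no spread between animals. Classes with at least 50 cells in each library were compared. A gene needed 20 UMIs in the class, a ratio of 1.5-fold and an interval without 1 to be called. Median depth in KO and WT was 30115 and 30615.5 UMIs in suprabasal, 21970 and 23918 in upper follicle and 17067 and 12207 in basal cells. It was 34705 and 44948 in cycling and 7065 and 9279.5 in outer follicle cells. Inner follicle cells had 16551 and 12820, and sebaceous gland cells 28665 and 38262. For shares of cells in a class, each cell was thinned to 3000 UMIs, with exact Clopper-Pearson intervals. The shares of late cells with a Lor or Cnfn UMI were not thinned. Free RNA was taken as the non-epithelial profile of the same library. Scrublet (scanpy 1.11.5) marked 67 KO and 0 WT cells and was taken not to have worked, so doublets were not removed, and an alternative left out the 838 KO and 1554 WT cells with the highest scores. Other alternatives were size factors by the median of ratios, no filter on counts, limits of 500 genes and 5% mitochondrial UMIs, stricter gates, thinned counts, the 1% of cells with most of a gene left out, and depth limits of 1000 and 6000 UMIs, the last 2 chosen after seeing the data. The interval and calls were tried on simulated counts for the suprabasal comparison. These counts were drawn as independent, which is what the interval assumes. The trial therefore could not show how the interval behaves where few cells hold most UMIs. Python 3.11.15, numpy 2.4.6, scipy 1.17.1 and matplotlib 3.10.9 were used.

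The members and lists were chosen with earlier results of these data known. The text names all 10 members, the 5 genes whose pattern was most like Lor, Tchh and Tgm1 among genes with at least 200 epithelial UMIs, and from each list the most abundant gene in suprabasal cells and the 2 with the largest ratio each way. Some genes that this rule would name are not reported here. Further names from the lists were chosen after their values had been seen. Several list genes, such as Cdsn and Asprv1, are also late markers.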

Additional observations from a re-analysis of the deposited data

Results flagged for a closer look

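Ivl differed between the libraries in opposite directions by class. Its KO over WT ratio was 0.323 in basal cells, 0.352 in cycling cells and 0.15 in sebaceous gland cells, against 1.8 in outer follicle cells. With 1 library per genotype the difference between classes was not tested, and the outer follicle value rests on 1 KO cell with 48 of 94 UMIs.

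Hrnr was higher in KO suprabasal cells, with a ratio of 2.46, and in KO upper follicle cells, with a ratio of 8.93, whereas its ratio was 0.139 in basal cells. This difference was not tested either, and all 24 basal WT UMIs lay in 2 cells.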

How the results depend on the processing

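The 41 calls of the 10 genes, in all epithelial cells and in the 7 classes, were recomputed under 10 alternatives. All 41 held with size factors by the median of ratios, without the filter on low counts and with depth limits of 1000 and 6000 UMIs. Calls that held numbered 40 with stricter cell filters, 40 without the highest Scrublet scores, 37 with free RNA subtracted, 36 with stricter gates, 29 without the 1% of cells with most of the gene and 22 with cells thinned to 3000 UMIs. Thinning leaves fewer UMIs, so fewer genes pass the filter. With thinned cells, 5 members were called in all epithelial cells (8 in the full counts), 4 in basal (7), 2 in cycling (5), 2 in inner follicle (5), of which Tchh was called in the other direction, and 1 in sebaceous gland cells (3). Free RNA subtraction left 3 in inner follicle cells, where the loss of Ecm1 was fixed in advance by its higher non-epithelial level. Without the 1% of cells with most of the gene, 3 remained called in cycling, 3 in inner follicle and 1 in sebaceous gland cells.

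The direction turned under stricter gates for Tgm3 in cycling (1.76) and Cnfn in outer follicle cells (2.10). It turned in thinned cells for Hrnr in suprabasal (0.948), Tgm3 in cycling (1.05), Cnfn in cycling (1.05) and Tchh in inner follicle cells (0.466). With free RNA subtracted, no WT Cnfn UMI was left in outer follicle cells, so that no ratio could be given. The direction turned for Cnfn in cycling cells with free RNA subtracted (1.66) and without the top 1% of cells (1.23), and without those cells also for Ivl in outer follicle (0.579) and Flg in inner follicle cells (0.375). Beyond what these constructions show, the cause was not tested.

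No paired analysis was possible because there was 1 library per genotype. For the same reason genotype, animals and library cannot be told apart. Flg2 and Hrnr had too few UMIs in most classes, and Tgm3 in 3 of the 7, for a difference to be detectable at this depth. Shares of cells move with depth, for which thinned values were given, except for the late cells with a Lor or Cnfn UMI, which were counted without thinning.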

Other observations

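In basal cells, whose Ivl was lower in the KO library, the UMIs came from a minority of cells. Cells with at least 3 Ivl UMIs made up 4.71% of KO (45) and 11.1% of WT (190) basal cells and held 78.1% of the KO and 90.7% of the WT basal Ivl UMIs. These cells were deeper than the other basal cells, with medians of 37156 against 16496.5 UMIs in KO and 39436 against 9913 in WT, so they were also the cells in which 3 UMIs are easiest to reach. The 10 sebaceous markers summed to 653 CPM in KO and 602 CPM in WT in them, against 369 CPM in KO and 363 CPM in WT in the other basal cells, and differed among themselves. Mgst1 stood in them at 543 CPM in KO and 454 CPM in WT, against 276 CPM in KO and 265 CPM in WT in the other basal cells. Soat1, which stores cholesterol as esters, stood at 22.0 CPM in KO and 38.7 CPM in WT, against 7.28 CPM in KO and 13.7 CPM in WT in the other basal cells. Scd1 stood at 31.4 CPM in KO and 62.9 CPM in WT, against 43.1 CPM in KO and 45.1 CPM in WT in the other basal cells, and so was lower in KO. Elovl3 was lower in both libraries, at 4.24 CPM in KO and 1.77 CPM in WT, against 5.04 CPM in KO and 2.87 CPM in WT. Fasn was nearly level, at 23.3 CPM in KO and 22.5 CPM in WT, against 23.0 CPM in KO and 24.1 CPM in WT. The cells were chosen after the data had been seen, and no test was made.

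The shallow keratin-rich barcodes that were set aside, 822 in KO and 4255 in WT with medians of 1124 and 1157 UMIs, held Lor at 22.3 CPM in KO and 8.75 CPM in WT and Cnfn at 40.9 CPM in KO and 175 CPM in WT. Ivl stood there at 21.4 CPM in KO and 49.0 CPM in WT. The directions of these 3 genes were those of the deeper epithelial cells, as were those of Tchh (ratio of 1.71) and Tgm3 (0 UMIs in KO and 23 in WT). The filaggrin group did not follow. Flg was not called, at 10.2 CPM in KO and 13.5 CPM in WT, a ratio of 0.759 (0.364 to 1.44). Hrnr had 0 UMIs in KO and 8 in WT, and Flg2 had 0 and 2, both under the filter. Tgm1 and Ecm1 were not called, with ratios of 1.20 and 1.31.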
